A study of Mus musculus with 28 samples.

Results

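The 8 genes described here encode receptors that steer leukocytes along chemical gradients, namely the chemokine receptors Ccr1, Ccr2, Ccr7, Cxcr4 and Cx3cr1, the chemokine-like receptor Ccrl2, and the formyl peptide receptors Fpr1 and Fpr2. They were chosen by name, with no measured value in the rule, from the 54532 genes of the count table, and all 8 were found there. Transcripts were measured by bulk RNA-seq in murine bone marrow-derived macrophages (BMDM), grown from the marrow of C57/B6JB mice 8 to 12 weeks old by 7 days of culture with the macrophage growth factor M-CSF. The cultures received PBS as control, plasma-derived human von Willebrand factor (VWF, the multimeric plasma protein that tethers platelets to collagen) at 10 µg/ml, or the bacterial endotoxin LPS at 100 ng/ml, all in fresh medium with 1 mM CaCl2, and were collected after 3.5 h or 16 h. Each time had 5 control, 5 VWF and 4 LPS cultures, 28 in all. The labels call them biological replicates without saying which cultures shared an animal, so the p-values below measure the spread between these cultures.

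Most of these receptors pass the binding of a ligand to the inhibitory G protein Gi, and from there to phosphoinositide 3-kinase and the actin skeleton. Ccr1 and Ccr2 answer the inflammatory CC chemokines, Ccr7 directs mature dendritic cells and lymphocytes to lymph nodes, Cxcr4 holds leukocytes in the bone marrow through Cxcl12, and Cx3cr1, the fractalkine receptor, marks resident and patrolling mononuclear phagocytes. Ccrl2 binds chemerin without signalling in the classical way, and the formyl peptide receptors sense N-formylated peptides released by bacteria and by damaged mitochondria.

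The total count was 41131209 to 77699206 per culture, and values are given as CPM, the share of a culture's counts scaled by TMM (the trimmed mean of M-values), unless stated. The macrophage label held in every culture, with a summed level of 5062 to 25800 CPM over 8 macrophage markers. The sums were 4.28 to 35.1 CPM over 8 neutrophil markers, 31.5 to 137 CPM over 7 dendritic cell markers and 5.47 to 194 CPM over 3 fibroblast markers. Control culture 5 at 16 h stood apart from the rest of its group (root mean square log2 distance 1.04) and had the lowest macrophage sum, and LPS culture 4 at 16 h stood apart as well (0.809), against 0.185 to 0.486 for the other 26. Results at 16 h are therefore also given without these cultures where a call or a value depended on them.

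A gene was tested in a comparison where it reached 10 TPM (transcript abundance corrected for gene length) in at least 1 of its cultures, and called where the adjusted p was under 0.05 and the absolute log2 fold change over 1. All adjusted p-values are from edgeR's quasi-likelihood test with Benjamini-Hochberg adjustment over all tested genes. "Rose", "fell", "higher" and "lower" with a fold change are used of calls.

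Positions are from GRCm38 with the GENCODE M21 annotation. Ccr1 (chromosome 9, 123962124 to 123968692, minus strand) and Ccr2 (chromosome 9, 124101950 to 124113557, plus strand) lie in the same chemokine receptor cluster, with 133257 bases between them. Ccrl2 (111054486 to 111057519, minus strand) and Cx3cr1 (119901616 to 120069879, minus strand) lie on the same chromosome. Ccr7 is on chromosome 11 (99144196 to 99155077, minus strand) and Cxcr4 on chromosome 1 (128588199 to 128592293, minus strand). Fpr1 (chromosome 17, 17876471 to 17883940, minus strand) and Fpr2 (17887824 to 17893952, plus strand) are transcribed away from each other with 3883 bases between them.

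The promoter sequences of the receptors that VWF raised most at 3.5 h are shown. They are the 250 bases before the start of the gene, 5′ to 3′ on the gene's own strand, from RefSeq (GRCm38.p6), at chr9:111057519-111057768 for Ccrl2, chr17:17883940-17884189 for Fpr1 and chr17:17887574-17887823 for Fpr2. Capitals mark matches to motifs searched on both strands.
Ccrl2: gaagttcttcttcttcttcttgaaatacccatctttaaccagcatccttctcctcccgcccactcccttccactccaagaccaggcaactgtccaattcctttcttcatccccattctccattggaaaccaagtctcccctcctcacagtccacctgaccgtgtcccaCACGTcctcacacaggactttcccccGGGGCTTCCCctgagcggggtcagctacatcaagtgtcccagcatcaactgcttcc
Fpr1: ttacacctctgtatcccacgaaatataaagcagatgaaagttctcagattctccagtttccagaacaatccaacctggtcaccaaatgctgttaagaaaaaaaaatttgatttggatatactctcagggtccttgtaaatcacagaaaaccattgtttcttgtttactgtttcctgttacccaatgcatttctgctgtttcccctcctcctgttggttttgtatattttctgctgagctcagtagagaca
Fpr2: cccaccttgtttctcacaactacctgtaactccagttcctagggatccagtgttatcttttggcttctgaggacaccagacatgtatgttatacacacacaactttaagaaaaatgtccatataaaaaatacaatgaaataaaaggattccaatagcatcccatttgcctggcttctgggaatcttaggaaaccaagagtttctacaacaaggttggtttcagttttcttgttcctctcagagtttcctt
The Ccrl2 window shown held 1 match to the kappaB motif, bound by NF-kappaB, at 56 bases before the start, and 1 to the hypoxia response core ACGTG at 82 bases before it. Windows of Ccrl2 at other starts, farther into the gene, held no kappaB match. These windows overlap and share 1 ACGTG site, which lies 99 and 125 bases before their starts. These 2 motifs stood in 8.46% and 19.6% of all 32851 promoter windows. The search covered 300 bases a window, with 50 after the start that are not shown. Neither formyl peptide receptor window held a match to these or to the interferon-stimulated response element (3.44% of windows), TGANTCA (AP-1, 7.81%) or GAGGAAGT (PU.1, 3.2%). Of the 7 receptors with a window in the table, Ccr1 was the only other with a match, a kappaB match at 74 bases before the start.

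VWF for 3.5 h raised Ccrl2, Fpr1 and Fpr2 and lowered Cxcr4 and Ccr2, which is 5 of the 7 receptors tested, against 14.7% of all genes tested. After 16 h of VWF, 3 of 7 were called, all higher (Fpr1, Fpr2 and Cx3cr1), against 8.71% of all genes, of which 4.55% were higher and 4.15% lower. LPS for 3.5 h raised Ccrl2, Fpr1 and Fpr2 and lowered Cxcr4, Ccr2 and Cx3cr1, 6 of 7 tested against 24.5% of all genes. At 16 h of LPS the calls were 6 of 8 against 27.6% (15.3% higher), with Ccr7, Ccrl2, Fpr1 and Fpr2 higher and Cxcr4 and Cx3cr1 lower. VWF and LPS were compared with the same control cultures, so their fold changes against control are not independent of each other. Fpr1 and Fpr2 passed the TPM filter against control only through treated cultures, and Ccr7 passed only through LPS culture 1 at 16 h (12.9 TPM), so that their place among the tested genes is no support for a change. The median log2 fold change over the tested receptors was 0.13, 0.72, -0.02 and 2.90 in these 4 comparisons in turn, against -0.03 to 0.00 over all tested genes. These medians include the receptors that passed only through treated cultures, so they are no support for a shift of the set. Among the receptors that reached the filter in controls, the middle value was that of Ccr1 with VWF (-0.75 at 3.5 h and -0.32 at 16 h). With LPS it was that of Ccr2 (-1.28 and -0.87). In bulk cultures, fewer cells with a receptor and less RNA of it per cell cannot be told apart.

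**Figure D1:**
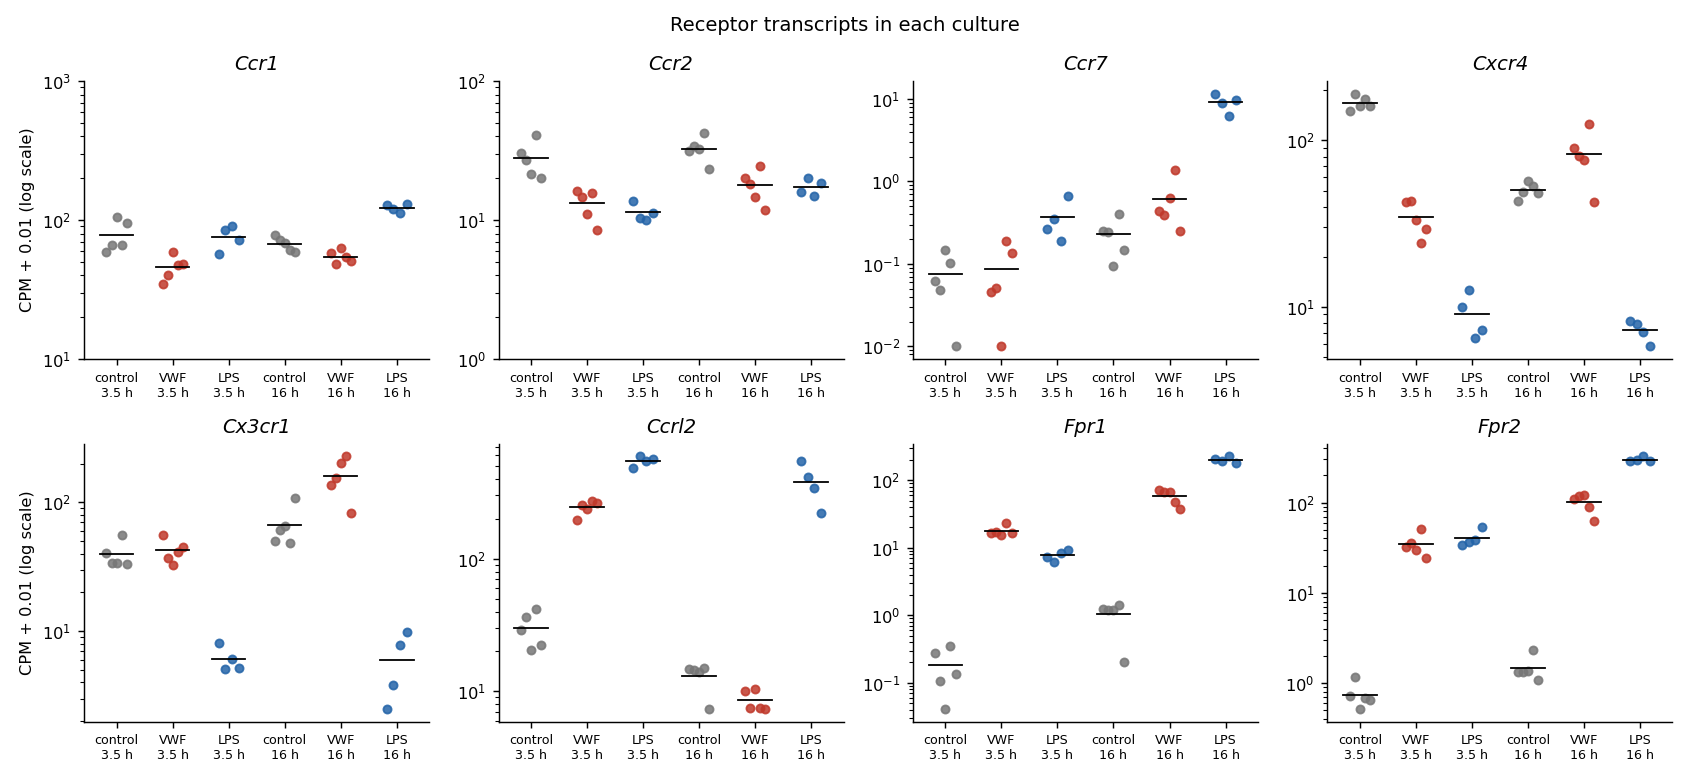
CPM + 0.01 on a log axis for each receptor (1 panel each, with its own axis range) in the 28 cultures, with points for cultures in order of replicate number, grey for control, red for VWF and blue for LPS, and black lines for group means. Fpr1 and Fpr2 in treated cultures sit above every control culture, Cxcr4 and Cx3cr1 in LPS cultures sit below every control culture, and Ccrl2 in VWF cultures is high at 3.5 h (244 CPM) but not at 16 h (8.56 CPM).

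The formyl peptide receptors had the largest fold changes of the 8 in all 4 comparisons with control. Fpr1 was measured in control cultures at 3.5 h at 0.264, 0.0971, 0.0307, 0.335 and 0.125 CPM, which is 2 to 25 reads a culture. With VWF at 3.5 h it stood at 16.6, 17.2, 15.4, 23.3 and 16.5 CPM, and with LPS at 7.15, 6.15, 8.46 and 9.27 CPM. All treated cultures lay above all controls, and the VWF cultures lay above the LPS cultures. The rise was 102-fold with VWF (log2 fold change 6.67 ± 0.39 (SE), adjusted p = 9.86e-08) and 44.4-fold with LPS (5.47 ± 0.43, adjusted p = 7.73e-07). Set directly against LPS, VWF gave the higher level at 3.5 h (1.22 ± 0.16, adjusted p = 0.000128), in a comparison that called 4 of the 6 receptors tested (3 higher with VWF and 1 lower) and 11.4% of all genes (4.71% higher and 6.71% lower).

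At 16 h the order of VWF and LPS was the opposite for Fpr1. Control cultures had 1.23, 1.199, 1.195, 1.40 and 0.193 CPM, VWF cultures 71.6, 67.7, 66.2, 47.7 and 37.2 CPM and LPS cultures 205, 190.0, 226 and 179 CPM, and the 3 groups did not overlap. The low control value is that of culture 5, which stood apart. VWF raised Fpr1 by 5.77 ± 0.44 on the log2 scale (adjusted p = 5.6e-06), or 5.52 without control culture 5, and LPS by 7.61 ± 0.47 (adjusted p = 9.26e-07). VWF cultures were now lower than LPS cultures (-1.78 ± 0.19, adjusted p = 2.53e-05), in a comparison where all 7 tested receptors and 25.5% of all genes were called. The change of the VWF-LPS difference between the times was -3.02 ± 0.26 (adjusted p = 5.59e-08), and this interaction called 5 of 7 receptors and 25% of genes.

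Fpr2, which besides formylated peptides is bound by annexin A1, serum amyloid A and the cathelicidin Camp, followed Fpr1 with a smaller gap between the stimuli at 3.5 h. Its levels at 3.5 h were 0.704, 1.15, 0.506, 0.669 and 0.647 CPM in control cultures, 31.98, 35.9, 29.5, 51.5 and 24.4 CPM with VWF and 33.7, 36.6, 38.7 and 53.9 CPM with LPS. The treated groups overlapped each other and lay above every control. The rise was 48.4-fold with VWF (5.60 ± 0.27, adjusted p = 2.62e-08) and 56.6-fold with LPS (5.82 ± 0.24, adjusted p = 3.42e-09). VWF against LPS gave -0.21 ± 0.21 (adjusted p = 0.415), a difference whose sign depended on the scaling.

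After 16 h, Fpr2 stood at 1.31, 1.31, 1.37, 2.33 and 1.06 CPM in control, 110.1, 119, 121, 90.2 and 63.04 CPM in VWF and 289, 293, 325 and 290.2 CPM in LPS cultures. No culture of one group reached into another. The rise over control was 67.8-fold with VWF (6.08 ± 0.29, adjusted p = 5.72e-07) and 208-fold with LPS (7.70 ± 0.25, adjusted p = 3.01e-08), and VWF cultures were lower than LPS cultures (-1.57 ± 0.18, adjusted p = 3.78e-05).

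Both formyl peptide receptors rose between the times in treated cultures. In control cultures, where both stayed under the filter, a fit without it gave 2.55 ± 0.58 for Fpr1 (adjusted p = 0.00686, 2 to 25 reads at 3.5 h and 10 to 102 at 16 h) and 0.95 ± 0.31 for Fpr2 (adjusted p = 0.0504), so the Fpr1 value was larger than that in VWF cultures. In VWF cultures the increase from 3.5 h to 16 h was 1.72 ± 0.19 for Fpr1 (adjusted p = 1.13e-05) and 1.55 ± 0.22 for Fpr2 (adjusted p = 9.24e-05), where 5 of 6 receptors (4 higher at 16 h) and 21.4% of genes (9.15% higher) were called. In LPS cultures it was 4.72 ± 0.16 for Fpr1 (adjusted p = 1.95e-07) and 2.91 ± 0.15 for Fpr2 (adjusted p = 1.23e-06), where 3 of 6 receptors and 28.1% of genes were called. The LPS effect grew with time by 2.16 ± 0.62 for Fpr1 and 1.90 ± 0.31 for Fpr2 (adjusted p = 0.00846 and 8.74e-05), an interaction that called 4 of 8 receptors and 26.3% of genes. The Fpr1 call was lost without control culture 4 at 3.5 h (1.69, adjusted p = 0.0565). The matching change of the VWF effect was -0.87 ± 0.56 for Fpr1 (adjusted p = 0.275) and 0.51 ± 0.36 for Fpr2 (adjusted p = 0.317), and neither was called, while that interaction called 3 of 7 receptors (2 upward and 1 downward) and 13.5% of genes (8.05% downward). Without control culture 5 at 16 h, the Fpr1 value became -1.11 (adjusted p = 0.0434).

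Per transcript length, Fpr2 exceeded Fpr1 in all 28 cultures, but by different amounts. The ratio of Fpr2 to Fpr1 TPM was 1.52 to 2.26 with VWF at 3.5 h and 4.67 to 6.08 with LPS at 3.5 h, so the ranges did not overlap. At 16 h it was 1.57 to 1.93 with VWF and 1.44 to 1.65 with LPS, and these ranges did overlap. Exons of Fpr3 overlap 3.7% of the Fpr2 exon length, and 12.3% of its 100-base windows are identical to the gene model Gm5966, so a small part of the Fpr2 counts is uncertain. Fpr3 itself reached at most 0.276 TPM.

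**Figure D2:**
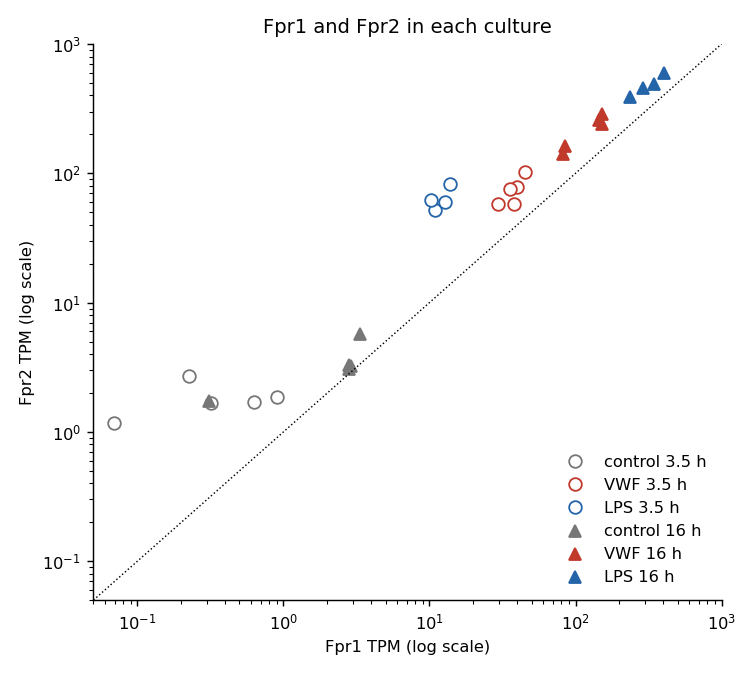
Fpr1 TPM (horizontal, log scale) against Fpr2 TPM (vertical, log scale) in each of the 28 cultures, with open circles for 3.5 h, filled triangles for 16 h and a dotted line where both are equal. All points lie above the line, and the 4 LPS cultures at 3.5 h lie farther from it (ratio 4.67 to 6.08) than the VWF cultures of the same time (1.52 to 2.26).

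Fpr1 and Fpr2 are also abundant in neutrophils and monocytes. The summed neutrophil markers were 4.79 to 15.2 CPM in control, 4.28 to 26.1 CPM in VWF and 11.2 to 30.0 CPM in LPS cultures at 3.5 h, and 8.28 to 22.7, 13.4 to 34.7 and 11.8 to 35.1 CPM at 16 h. Of these markers Ly6g was at 0 in all VWF cultures and in all controls at 16 h, and Elane, Retnlg and Ly6g were at 0 in all LPS cultures at 16 h. At 3.5 h others had higher means in treated cultures, with S100a9 at 1.81, 4.21 and 5.92 CPM and Ngp at 1.39, 2.89 and 3.53 CPM in control, VWF and LPS cultures, and S100a8 at 3.72, 3.63 and 7.22 CPM. At 16 h the means of S100a9 were 1.44, 3.53 and 3.15 CPM and those of S100a8 13.8, 14.9 and 15.6 CPM. The part of these cells in the result was not tested. The 3 monocyte markers summed to 1.30 to 3.80, 2.23 to 4.92 and 5.65 to 12.0 CPM in control, VWF and LPS cultures at 3.5 h, and to 0.503 to 3.19, 5.91 to 26.8 and 19.8 to 42.5 CPM at 16 h. The monocyte sum overlapped between control and VWF cultures at 3.5 h and was higher without overlap in the other treated groups, and its part in the result was not tested.

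Ccrl2 was a transient change with VWF and a lasting one with LPS. The cultures at 3.5 h had 28.9, 36.6, 20.5, 42.1 and 22.2 CPM in control, 194, 253, 235, 274 and 264 CPM with VWF and 479, 591, 541 and 564 CPM with LPS. The 3 groups did not overlap. VWF raised it 8.28-fold (3.05 ± 0.21, adjusted p = 2.86e-07) and LPS 18.4-fold (4.20 ± 0.21, adjusted p = 2.01e-08). The VWF level was below the LPS level (-1.13 ± 0.11, adjusted p = 1.26e-05), a difference that fell under the fold threshold when counts were scaled by library size alone (-0.85).

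By 16 h, Ccrl2 had dropped to 10.01, 7.501, 10.4, 7.45 and 7.37 CPM in VWF cultures, beside 14.7, 14.6, 13.95, 15.03 and 7.35 CPM in controls and 542, 415, 342 and 222 CPM in LPS cultures. VWF cultures overlapped the controls only through control culture 5. The VWF value against control was -0.63 ± 0.21 (adjusted p = 0.0505), not called, and -0.78 (adjusted p = 0.000761) without that culture. LPS still held Ccrl2 29.7-fold above control (4.89 ± 0.31, adjusted p = 1.19e-06), with LPS culture 4, which stood apart, the lowest of its group. Within VWF cultures the fall from 3.5 h to 16 h was 28.3-fold (-4.83 ± 0.15, adjusted p = 1.22e-09), whereas LPS cultures gave -0.49 ± 0.23 (adjusted p = 0.0993) and control cultures -1.19 ± 0.25 (adjusted p = 0.00351), where 2 of 5 receptors, both lower at 16 h, and 9.11% of genes were called (4.12% higher and 4.99% lower). The change of the VWF effect with time was -3.65 ± 0.30 (adjusted p = 1.13e-08) and that of the VWF-LPS difference -4.35 ± 0.28 (adjusted p = 2.1e-09).

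Cxcr4, the Cxcl12 receptor, led the 8 receptors by TPM in control cultures at 3.5 h and was lowered by both stimuli there. Its levels were 150.3, 191, 161, 176 and 160.1 CPM in control, 42.4, 43.4, 33.1, 24.1 and 29.4 CPM in VWF and 9.95, 12.7, 6.46 and 7.29 CPM in LPS cultures, without overlap between groups. VWF lowered Cxcr4 4.76-fold (-2.25 ± 0.16, adjusted p = 5.19e-07) and LPS 18.1-fold (-4.18 ± 0.20, adjusted p = 1.44e-08), and VWF cultures stood above LPS cultures by 1.94 ± 0.24 (adjusted p = 8.24e-05).

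The control level itself fell with time. At 16 h controls held 43.3, 48.9, 56.7, 53.5 and 48.5 CPM, a drop of 3.32-fold from 3.5 h (-1.73 ± 0.10, adjusted p = 1.53e-06). VWF cultures now had 89.97, 80.9, 76.3, 125 and 42.8 CPM, and LPS cultures had 8.18, 7.83, 7.002 and 5.77 CPM. Of the VWF cultures, 4 lay above every control and culture 5 lay just below them all, and the LPS cultures lay far below both groups. VWF against control gave 0.72 ± 0.23 (adjusted p = 0.039), under the fold threshold. LPS cultures remained lower (-2.77 ± 0.14, adjusted p = 1.98e-07). In VWF cultures Cxcr4 rose from 3.5 h to 16 h by 1.27 ± 0.26 (adjusted p = 0.00101), and the change of the VWF effect with time was 2.99 ± 0.29 (adjusted p = 1.42e-07). The LPS effect became smaller in size, with a change of 1.43 ± 0.23 (adjusted p = 5.7e-05), while LPS cultures themselves gave -0.31 ± 0.24 between the times (adjusted p = 0.286), not called.

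Cx3cr1 separated the stimuli. At 3.5 h it was 40.6, 33.9, 33.9, 56.2 and 33.5 CPM in control, 56.1, 37.2, 32.7, 41.02 and 44.97 CPM in VWF and 8.15, 5.04, 6.05 and 5.18 CPM in LPS cultures. VWF and control cultures overlapped, and every LPS culture lay below both. The VWF value was 0.13 ± 0.18 (adjusted p = 0.625), with a sign that depended on the scaling and on VWF culture 1, and LPS lowered Cx3cr1 6.39-fold (-2.68 ± 0.20, adjusted p = 5.43e-07).

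At 16 h the Cx3cr1 levels were 50.1, 60.97, 65.1, 48.7 and 109 CPM in control, 138, 155, 200.5, 228 and 82.6 CPM in VWF and 2.47, 3.84, 7.77 and 9.93 CPM in LPS cultures. Control culture 5, which stood apart, was the highest control and overlapped the VWF cultures, whose lowest was culture 5. VWF raised Cx3cr1 2.40-fold (1.27 ± 0.29, adjusted p = 0.00836), or by 1.50 on the log2 scale without control culture 5. With the replicate number as a block in the fit, Cx3cr1 was no longer called with VWF (1.27, adjusted p = 0.0537). LPS lowered it 10.8-fold (-3.44 ± 0.47, adjusted p = 0.000183), and VWF cultures stood 26.9-fold above LPS cultures (4.75 ± 0.49, adjusted p = 1.99e-05). The VWF cultures rose from 3.5 h to 16 h by 1.93 ± 0.25 (adjusted p = 4.25e-05), beside 0.77 ± 0.24 in controls (adjusted p = 0.0285), not called. The change of the VWF effect with time was 1.15 ± 0.37 (adjusted p = 0.0203), which came to 0.99, under the fold threshold, without control culture 4 at 3.5 h and likewise without VWF culture 4 at 16 h. The summed macrophage markers were also higher in VWF cultures at 16 h, 18420 to 25800 CPM against 5062 to 16490 CPM in controls, and their part in the Cx3cr1 level was not tested. Most of that sum was Lyz2, with a mean of 16750 CPM against 10130 CPM. The means of Adgre1, Csf1r, Itgam, Fcgr1 and, slightly, Cd68 were also higher with VWF. Those of Mertk (41.98 against 60.2 CPM) and Mrc1 (114 against 218 CPM) were lower. An antisense gene, Gm33858, overlaps 1.73% of the Cx3cr1 exon length, and whether counting used the strand is not given in the sources used here.

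Ccr2, the receptor that brings inflammatory monocytes out of the marrow, was lower with either stimulus at 3.5 h. Control cultures had 30.1, 27.01, 21.5, 41.2 and 20.01 CPM, VWF cultures 16.3, 14.7, 10.97, 15.7 and 8.46 CPM and LPS cultures 13.7, 10.4, 10.1 and 11.2 CPM. All treated cultures lay below all controls and overlapped each other. The fall was 2.07-fold with VWF (-1.05 ± 0.23, adjusted p = 0.00304) and 2.43-fold with LPS (-1.28 ± 0.20, adjusted p = 0.000218). The VWF call is near the fold threshold, and it was lost without control culture 4 (-0.90), without VWF culture 3 (-0.99), without VWF culture 5 (-0.94) and with limma voom (-0.86). At 16 h the group means were 32.6 ± 6.79 CPM in control (SD, n = 5), 17.8 ± 4.97 CPM in VWF (SD, n = 5) and 17.4 ± 2.44 CPM in LPS cultures (SD, n = 4). The differences from control, -0.89 ± 0.21 for VWF (adjusted p = 0.0103) and -0.87 ± 0.17 for LPS (adjusted p = 0.00194), were under the fold threshold. The VWF value at 16 h passed without VWF culture 4 (-1.02) and with voom (-1.04), so that voom called Ccr2 with VWF at 16 h and not at 3.5 h. The LPS value at 16 h passed with voom (-1.06), with library size scaling (-1.44) and without both cultures that stood apart (-1.01).

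Ccr1, a receptor for Ccl3, Ccl5, Ccl6, Ccl7 and Ccl9, was present in every group and was not called against control in any of the 4 comparisons. The means at 3.5 h were 78.5 ± 20.3 CPM in control (SD, n = 5), 45.9 ± 9.16 CPM in VWF (SD, n = 5) and 76.1 ± 14.97 CPM in LPS cultures (SD, n = 4). VWF cultures lay below every control (-0.75 ± 0.18, adjusted p = 0.00603), a difference under the fold threshold, and LPS gave -0.02 ± 0.19 (adjusted p = 0.927). At 16 h the cultures held 77.8, 72.3, 68.03, 60.5 and 59.01 CPM in control, 57.8, 48.1, 62.6, 54.04 and 50.7 CPM with VWF and 128, 119.7, 112 and 130.4 CPM with LPS. Every LPS culture lay above all cultures of the other groups at that time. LPS against control came to 0.90 ± 0.11 (adjusted p = 6.94e-05), under the fold threshold, and VWF to -0.32 ± 0.11 (adjusted p = 0.0518). VWF against LPS was called (-1.16 ± 0.10, adjusted p = 3.87e-06) and fell under the fold threshold (-0.72) with library size scaling.

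Ccr7 was at the limit of detection outside LPS cultures at 16 h. Those 4 cultures had 11.6, 9.02, 6.24 and 9.68 CPM, or 260 to 518 reads, and all other cultures had 0 to 1.37 CPM. The controls of that time had 0.243, 0.235, 0.0854, 0.391 and 0.135 CPM, or 5 to 24 reads, so no LPS culture overlapped them. The rise against the control cultures of 16 h was 42.2-fold (5.40 ± 0.42, adjusted p = 3.97e-06), and the VWF cultures, at 0.425, 0.379, 0.619, 1.37 and 0.238 CPM, were lower than the LPS cultures (-3.92 ± 0.46, adjusted p = 4.97e-05). Within LPS cultures Ccr7 rose from 3.5 h to 16 h by 4.70 ± 0.40 (adjusted p = 1.36e-05), and the change of the LPS effect with time was 3.06 ± 0.77 (adjusted p = 0.00338). In comparisons where it stayed under the TPM filter, a fit without the filter was used. It gave 2.42 ± 0.68 for LPS against control at 3.5 h (adjusted p = 0.0068, 7 to 24 reads against 0 to 9). For VWF against control at 16 h it gave 1.51 ± 0.53 (adjusted p = 0.102, 13 to 77 reads against 5 to 24), and these groups overlapped. From 3.5 h to 16 h the same fit gave 2.89 ± 0.64 in VWF cultures (adjusted p = 0.00152) and 1.63 ± 0.73 in control cultures (adjusted p = 0.162). Ccr7 is known for mature dendritic cells, and the sum of 7 dendritic cell markers was 31.5 to 46.0 CPM in LPS cultures at 16 h against 104 to 137 CPM in controls. Most of that sum was Itgax, with a mean of 20.9 CPM against 103 CPM, which macrophages also express. The means of Fscn1 (15.5 against 13.5 CPM), Clec9a (1.11 against 0.0561 CPM), Zbtb46 (0.508 against 0.372 CPM), Siglech (0.144 against 0.0595 CPM) and Flt3 (0.0652 against 0.0247 CPM) were higher with LPS and that of Cd209a lower (0.0192 against 0.132 CPM), and the part of dendritic cells in the Ccr7 level was not tested.

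**Figure D3:**
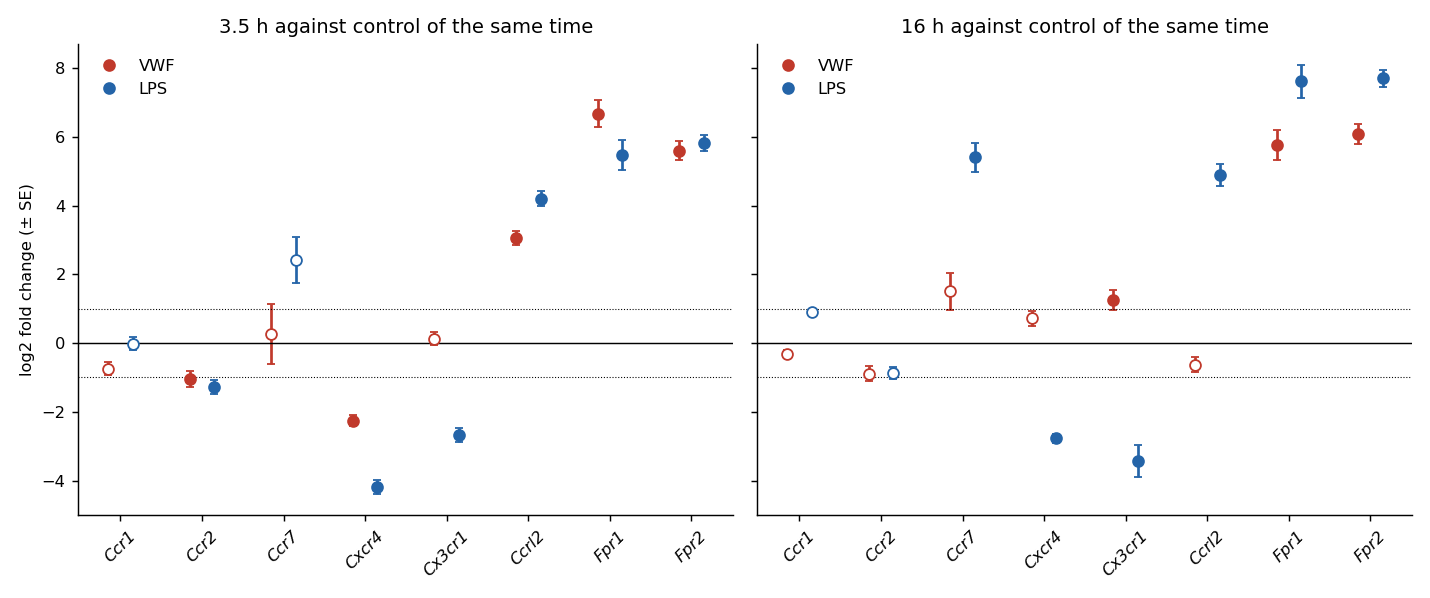
Log2 fold change against the control of the same time (± SE) for each receptor at 3.5 h (left) and 16 h (right), red for VWF and blue for LPS, with filled points for calls, open points for values not called or under the TPM filter, and dotted lines at the fold threshold. Cx3cr1 at 16 h has VWF above 0 (1.27) and LPS below 0 (-3.44), and Ccrl2 at 16 h is called with LPS (4.89) and not with VWF (-0.63).

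Set side by side by length, the receptor makeup of the cells differed by group. Cxcr4 gave 63.6% of the summed receptor TPM in control cultures at 3.5 h (mean 300.1 TPM) and 35.6% at 16 h, where Ccr1 followed with 30.7%. At 3.5 h Ccrl2 led with both stimuli, at 51.9% with VWF (263 TPM) and 74.4% with LPS (429 TPM). At 16 h Fpr2 led, at 34.3% with VWF (217 TPM) and 39.4% with LPS (484 TPM). Fpr1 and Fpr2 together made up 0.285% to 0.615% of the receptor TPM in control cultures at 3.5 h and 1.22% to 3.72% at 16 h. With VWF these shares were 17.6% to 28.1% and 41.98% to 58.4%, and with LPS 10.97% to 16.3% and 58.6% to 71.3%. The VWF and LPS ranges at each time did not overlap, and VWF had the higher share at 3.5 h and the lower at 16 h. The summed receptor TPM was 168 to 256 in control cultures at 16 h, 410.2 to 788 with VWF and 878 to 1431 with LPS.

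**Figure D4:**
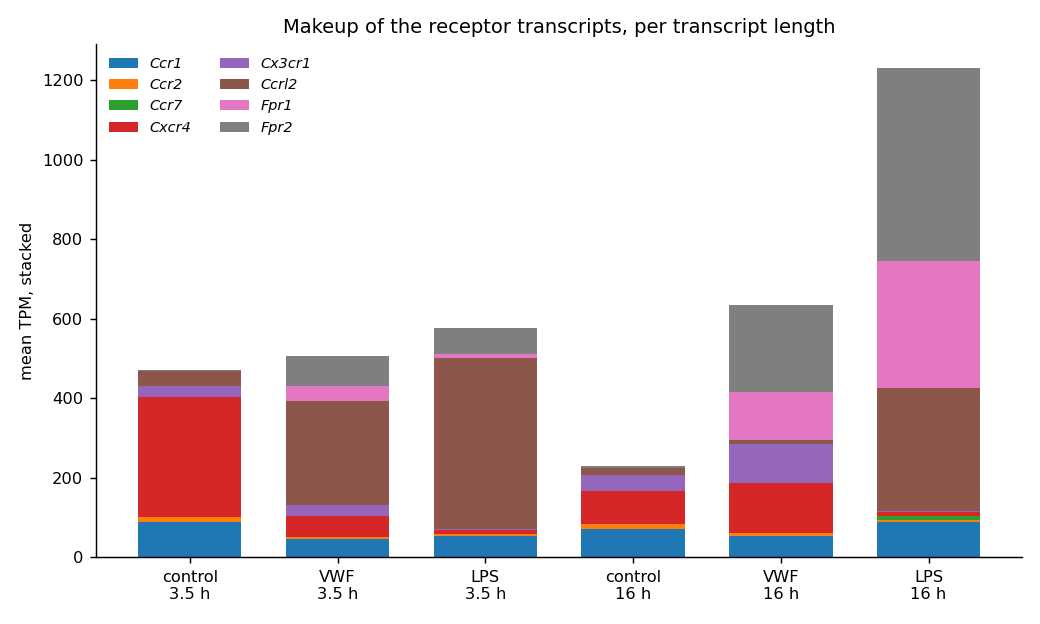
Mean TPM of the 8 receptors stacked for each of the 6 groups (vertical axis from 0, colours for genes). Cxcr4 is the largest block in control cultures (63.6% at 3.5 h), Ccrl2 in VWF and LPS cultures at 3.5 h, and Fpr2 in both at 16 h (34.3% and 39.4%), while Cx3cr1 takes 15.5% in VWF cultures and 0.221% in LPS cultures at 16 h.

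The ordering of the 6 groups was clear for some receptors and not for others. For Fpr1 each group in the order LPS 16 h, VWF 16 h, VWF 3.5 h, LPS 3.5 h and control was separated from the next, and only the control groups overlapped each other. Cxcr4 ran from control 3.5 h through VWF 16 h, control 16 h and VWF 3.5 h to the LPS groups, where neighbours from VWF 16 h to VWF 3.5 h overlapped, as did the LPS groups with each other. Ccr2 had no separated neighbours. Ccr1 was separated only at the top, with LPS 16 h above the rest, and Ccr7 likewise.

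Ligands of these receptors changed in the same cultures, counted over a list of 20. VWF at 3.5 h raised 10 of the 14 tested, against 9.18% of all genes raised, and lowered none, with a median log2 fold change of 2.08 against 0.00 over all genes. LPS raised 9 of 13, against 12.8%, with a median of 3.81 against -0.02. Ccl8 and Saa3, and with VWF also Cx3cl1, reached the filter only in treated cultures, so that their place among the tested genes is no support for a change. Of the 11 ligands that reached it in controls, 7 rose with VWF and 7 with LPS. Both medians include the ligands that reached it only in treated cultures, so they are no support for a shift of the set. Ccl5, a ligand of Ccr1, rose most, from 2.31 ± 0.9102 CPM in control (SD, n = 5) to 820.2 ± 175 CPM with VWF (SD, n = 5; 8.50 ± 0.33, adjusted p = 5.48e-09) and 2593 ± 303 CPM with LPS (SD, n = 4; 10.15 ± 0.33, adjusted p = 7.75e-10). Among the ligands of Ccr2, Ccl2 rose by 1.76 ± 0.22, Ccl7 by 2.29 ± 0.30 and Ccl12 by 2.94 ± 0.26 with VWF, and by 3.81 ± 0.26, 4.79 ± 0.34 and 4.68 ± 0.20 with LPS, on the log2 scale. In the same cultures Ccr2 itself was lower. Ccl3, Ccl4, Ccl8 and Ccl9 rose with VWF by 2.76 ± 0.24, 4.23 ± 0.31, 2.97 ± 0.65 and 1.87 ± 0.11. The fractalkine gene Cx3cl1 rose with VWF to 16.4 ± 3.79 CPM (SD, n = 5) from 5.79 ± 1.47 CPM (SD, n = 5; 1.54 ± 0.21, adjusted p = 8.17e-05). It was under the filter for LPS against control at 3.5 h, and VWF against LPS at that time gave 0.15 ± 0.18 (adjusted p = 0.5), not called.

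At 16 h the ligands went both ways in VWF cultures, with 4 of 13 higher and 3 lower, against 4.55% and 4.15% of all genes (median -0.21 against -0.03). With LPS 9 of 12 were higher and 1 lower, against 15.3% and 12.4% (median 3.50 against -0.03). Here Ccl8, and with VWF also Camp, reached the filter only in treated cultures. Of the 11 ligands that reached it in controls, 3 rose and 3 fell with VWF, and 8 rose and 1 fell with LPS. The medians include the ligands that reached it only in treated cultures, so they are no support for a shift of the set. Ccl3, Ccl4 and Ccl6 fell with VWF (-2.51 ± 0.15, -2.29 ± 0.30 and -1.47 ± 0.19), while Ccl5, Ccl12, Camp and Saa3 were higher (8.79 ± 0.30, 3.87 ± 0.36, 3.65 ± 0.86 and 8.78 ± 0.90). Ccl2 and Ccl7 stood at -0.40 ± 0.26 and -0.21 ± 0.39, not called. With LPS at 16 h Ccl3 and Ccl4 remained higher (1.75 ± 0.15 and 2.89 ± 0.41), and only Ccl6 was lower (-1.05 ± 0.17). The change of the VWF effect with time was -5.25 ± 0.29 for Ccl3 and -6.52 ± 0.47 for Ccl4 (adjusted p = 9.14e-11 and 2.16e-09).

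Ligands of Fpr2 differed from one another. Saa3, an acute-phase protein, was raised by VWF at 3.5 h from 2.95 ± 2.33 to 1030 ± 292 CPM (SD, n = 5 each; 8.47 ± 0.57, adjusted p = 2.93e-07), and was then higher with VWF than with LPS by 2.21 ± 0.27 (adjusted p = 6.71e-05). At 16 h it was lower with VWF than with LPS (-1.98 ± 0.38, adjusted p = 0.00123). This is the order of stimuli that Fpr1 also showed at the 2 times. Anxa1, which encodes annexin A1, was at 1041 ± 71.8 CPM in control cultures at 3.5 h (SD, n = 5) and was not called against control in any of the 4 comparisons. With LPS its values were just under the fold threshold, at 0.98 ± 0.09 at 3.5 h (adjusted p = 2.78e-06) and -0.86 ± 0.10 at 16 h (adjusted p = 6.16e-05). VWF gave 0.20 ± 0.09 (adjusted p = 0.089) and -0.64 ± 0.08 (adjusted p = 0.000156). The change of the LPS effect on Anxa1 with time was called (-1.83 ± 0.115, adjusted p = 1.77e-09), as was that of the VWF-LPS difference (1.02 ± 0.12, adjusted p = 1.45e-06). Cxcl12, the Cxcr4 ligand, averaged 6.399 to 14.99 CPM over the groups and Mif 135 to 502 CPM, and neither was called against control where tested.

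**Figure D5:**
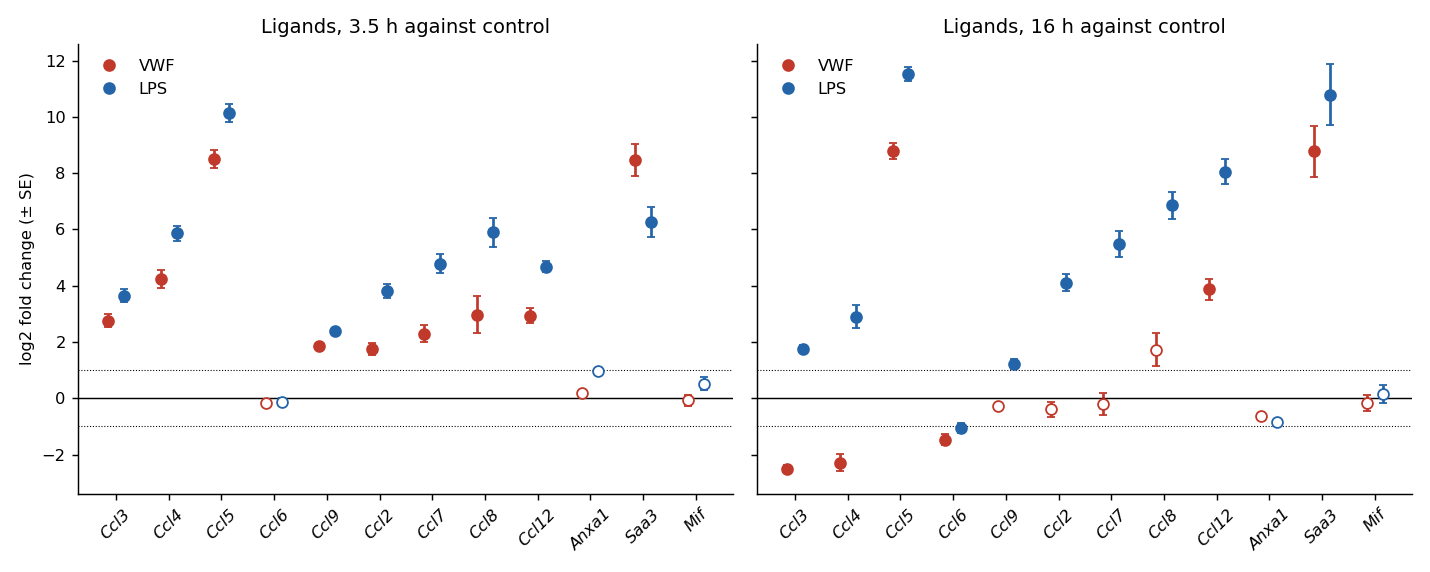
Log2 fold change against control (± SE) of 12 ligand genes at 3.5 h (left) and 16 h (right), red for VWF and blue for LPS, with filled points for calls and open points for values not called. With VWF, Ccl3 and Ccl4 lie above 0 at 3.5 h (2.76 and 4.23) and below 0 at 16 h (-2.51 and -2.29), while with LPS both stay above 0.

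Of 14 other chemokine receptors, 10 stayed under 2 TPM in every culture. Ccr3 rose with VWF at 16 h (1.19 ± 0.21, adjusted p = 0.00168) and with LPS at both times (1.76 ± 0.12 and 1.41 ± 0.16). Xcr1 rose with LPS at both times (5.55 ± 0.24 and 5.36 ± 0.52) and averaged 12.7 CPM with VWF at 3.5 h, under the filter, and Cxcr3 fell with LPS at 16 h (-1.43 ± 0.31, adjusted p = 0.0031). Xcr1, and at 16 h Ccr3, reached the filter only in treated cultures. None of 4 atypical chemokine receptors or 5 other formyl peptide receptors passed the filter in any comparison.

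Other chemoattractant receptors went both ways, and 7 of 11 passed the filter at 3.5 h. VWF raised 2 and lowered 3 of these, against 9.18% and 5.52% of all genes (median log2 fold change -0.06), and LPS raised 1 and lowered 2, against 12.8% and 11.8%, with a median of -0.36. At 16 h 6 were tested, of which VWF raised 1 and lowered 1, and LPS raised 3 and lowered 3 (medians -0.09 and -0.06), against 8.71% and 27.6% of all genes called. Cmklr1 reached the filter at 16 h only in treated cultures. Gpr183, which responds to oxysterols, fell most, from 46.9 ± 7.59 CPM in control to 1.05 ± 0.127 CPM with VWF at 3.5 h (SD, n = 5 each; -5.46 ± 0.15, adjusted p = 7.27e-10) and to 2.03 ± 0.567 CPM with LPS (SD, n = 4; -4.50 ± 0.22, adjusted p = 1.19e-08). The sphingosine-1-phosphate receptor S1pr1 fell with VWF (-1.07 ± 0.11) and with LPS (-2.33 ± 0.20) at 3.5 h. At that time the platelet-activating factor receptor Ptafr rose with both (1.20 ± 0.12 and 1.19 ± 0.12). At 16 h S1pr1 and Gpr183 were lower with LPS (-1.80 ± 0.18 and -4.16 ± 0.24), and Gpr183 was also lower with VWF (-1.39 ± 0.17). Ptafr was then higher with LPS (1.001 ± 0.13), a call at the edge of the fold threshold. Cmklr1, the signalling chemerin receptor, rose with VWF at 3.5 h (1.01 ± 0.29) and 16 h (1.95 ± 0.42) and with LPS at 16 h (2.52 ± 0.49). C5ar2, a second C5a receptor, fell with VWF at 3.5 h (-1.45 ± 0.15). The chemerin gene Rarres2 reached at most 1.26 TPM. The C5a receptor C5ar1 fell only in the LPS cultures at 16 h among these 4 comparisons (-1.12 ± 0.15, adjusted p = 0.000183), where the C3a receptor C3ar1 rose (1.40 ± 0.12, adjusted p = 8.62e-06).

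Genes that carry or end the receptor signal went both ways. Of 8 regulators of G protein signalling, 7 were tested, and VWF raised 1 and lowered 2 at 3.5 h (median log2 fold change -0.32) and lowered 4 at 16 h (-1.07), while LPS raised 2 at 3.5 h (-0.15) and lowered 3 at 16 h (-0.91). With VWF 5.52% and 4.15% of all genes were lowered at these times, and with LPS 12.8% were raised at 3.5 h and 12.4% lowered at 16 h. Rgs1 and Rgs2 fell with VWF at both times (Rgs1 -2.47 ± 0.11 and -2.58 ± 0.21, Rgs2 -2.95 ± 0.17 and -1.78 ± 0.14), and Rgs18 and Rgs16 fell with VWF at 16 h (-1.07 ± 0.19 and -1.83 ± 0.35). With LPS Rgs14 rose at 3.5 h (1.61 ± 0.10), and Rgs18, Rgs2 and Rgs10 fell at 16 h (-3.37 ± 0.21, -2.42 ± 0.19 and -2.42 ± 0.13). Rgs16 rose with both stimuli at 3.5 h (1.01 ± 0.23 with VWF and 1.31 ± 0.30 with LPS). With LPS, Rgs1 was at 0.20 ± 0.12 at 3.5 h, not called, and VWF lay below LPS (-2.66 ± 0.11, adjusted p = 1.1e-07). Of 7 genes of receptor desensitisation, VWF raised 1 of 5 tested at 3.5 h and lowered 1 of 5 at 16 h (medians -0.30 and -0.21), and LPS lowered 3 of 4 and 2 of 5 (medians -1.22 and -0.92), where VWF called 14.7% and 8.71% and LPS 24.5% and 27.6% of all genes. Grk3 reached the filter with VWF at 3.5 h only in treated cultures. The arrestin genes Arrb1 and Arrb2, which uncouple receptors, fell with LPS at 3.5 h (-1.54 ± 0.15 and -1.29 ± 0.09) and were not called with VWF (-0.80 ± 0.16 and -0.31 ± 0.08). Of the kinases that phosphorylate active receptors, Grk3 rose with VWF at 3.5 h (1.40 ± 0.21), Grk5 fell with VWF at 16 h (-1.58 ± 0.11), and Grk6 fell with LPS at both times (-1.15 ± 0.09 and -1.32 ± 0.13), as Arrb1 did at 16 h (-1.66 ± 0.17). Grk3 was under the filter for LPS against control at 3.5 h, and VWF against LPS at that time gave 0.021 ± 0.145 (adjusted p = 0.916), not called.

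Of 12 genes of the chemotaxis pathway, VWF raised 5 and lowered 1 at 3.5 h and raised 3 at 16 h (medians 0.57 and 0.35), and LPS raised 3 and lowered 2 of 12 and then raised 5 and lowered 3 of 11 (medians 0.12 and 0.37). The shares of all genes called were 14.7% and 8.71% with VWF and 24.5% and 27.6% with LPS, and Pik3r6 at 3.5 h and Fgr with VWF at 16 h reached the filter only in treated cultures. Pik3cg, the kinase that Gi-coupled receptors activate, rose with VWF at 3.5 h (1.02 ± 0.16) and fell with LPS (-1.27 ± 0.15), and the direct VWF-LPS difference was 2.30 ± 0.15 (adjusted p = 1.05e-06). Its regulatory subunits Pik3r5 and Pik3r6 rose with both at that time (1.84 ± 0.14 and 2.25 ± 0.13 with VWF, 1.29 ± 0.13 and 2.93 ± 0.10 with LPS). The Src-family kinase Fgr rose with VWF at both times (1.38 ± 0.21 and 1.72 ± 0.20), and the phospholipase Plcb2 fell with VWF at 3.5 h (-1.07 ± 0.18) and with LPS at both times (-1.20 ± 0.18 and -1.13 ± 0.19). At 16 h Prex1, a Rac exchange factor, rose with VWF (1.02 ± 0.10) and LPS (1.62 ± 0.12), Rac2 rose with LPS (1.73 ± 0.18) and Elmo1 fell with LPS (-1.06 ± 0.12), beside Pik3r5, Pik3r6 and Pik3cg (1.43 ± 0.10, 1.11 ± 0.16 and -1.25 ± 0.22). Of 9 Gi protein subunits, 8 were tested at 3.5 h and 7 or 8 at 16 h. None was called with VWF (medians 0.22 and 0.04), while Gnb4 alone rose with LPS at 3.5 h (2.61 ± 0.13, adjusted p = 1.87e-08) and 16 h (1.55 ± 0.11, list medians 0.34 and 0.41), and reached the filter only in treated cultures.

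The genes whose levels over the 6 groups most resembled each receptor were sought among 8867 genes that reached 10 TPM, by the root mean square difference of centred log2 CPM. For Fpr1 they were Lcn2 (0.713), Fpr2 (0.716) and Cfb (1.16), and for Fpr2 Lcn2 (0.702), Fpr1 (0.716) and Slfn1 (0.836). Lcn2 encodes an iron-scavenging protein of acute inflammation. The nearest to Ccrl2 were the Ccr2 ligand Ccl7 (0.507), Abtb2 (0.599) and Mmp13 (0.606). Cxcr4 had Usp2 (0.293), Ccsap (0.380) and Dusp9 (0.583), and Cx3cr1 had Aunip (0.719), Mybl2 (0.720) and Fbxo5 (0.748). Ccr1 and Ccr2, with little change, had the closest matches, Gm15417 (0.115), Taok3 (0.136) and Ppm1h (0.139) for Ccr1 and H1f0 (0.1004), Gm17251 (0.127) and Dhrs3 (0.166) for Ccr2. For Ccr7 they were Gm40685 (0.486), Treml2 (0.637) and Peak1os (0.653).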

How the data were processed

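Per the labels and the study's methods, RNA was sequenced as paired 150-base reads and aligned by the authors with STAR to GRCm38. The deposited values are whole-number counts per gene, not normalised. For the STAR version, the annotation and the strand and multimapping settings, nothing is stated in the labels or methods read here. TPM was computed with exon lengths from GENCODE M21, available for 54495 genes, and CPM with TMM factors over all 28 cultures. Each comparison was fitted with edgeR 4.0.16 (R 4.3.3; TMM, robust quasi-likelihood) on its own groups after a filter of 10 TPM in at least 1 culture, with calls at an adjusted p under 0.05 and an absolute log2 fold change over 1, and a fold change divided by the root of its F statistic gave its SE. In all, 9 pairwise comparisons and 3 interactions with time were fitted. Alternatives used DESeq2 1.42.0 and limma 3.58.1 (voom), other filters, scalings and left-out cultures, and the fits were tested on simulated data. Same-numbered cultures deviated together in every pair only for VWF against LPS at 16 h (correlations 0.16 to 0.781, 4 pairs), where a replicate block changed no receptor call. The receptors and gene lists were chosen with earlier results of these data known. The text names the receptors, the members of those lists that reached 10 TPM and were called for a treatment, and the 3 genes most like each receptor, while Anxa1, Cxcl12, Mif, Rarres2 and Fpr3 were named after their values were seen. Results for some members of these lists are not reported here.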

Additional observations from a re-analysis of the deposited data

Results flagged for a closer look

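In 6 of 48 sets of cultures (8 receptors in 6 groups), 1 culture lay far from the rest of its group by Dixon's criterion, which chance gives in about 1 group in 20. Of these, 3 were control culture 5 at 16 h, which stood apart over all genes, with Ccrl2 at 7.35 CPM, Cx3cr1 at 109 CPM and Fpr1 at 0.193 CPM. The others were Fpr1 at 23.3 CPM in VWF culture 4 at 3.5 h, Fpr2 at 2.33 CPM in control culture 4 at 16 h and Fpr2 at 325 CPM in LPS culture 3 at 16 h. The summed neutrophil markers were the highest of the group in VWF culture 4 (26.1 CPM) and control culture 4 (22.7 CPM). In LPS culture 3 they were the lowest (11.8 CPM), and their part was not tested.

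Effects that differed between 3.5 h and 16 h by edgeR's interaction test, with Benjamini-Hochberg adjustment, were also picked out. The VWF effect changed by -3.65 on the log2 scale for Ccrl2, 1.15 for Cx3cr1 and 2.99 for Cxcr4. The Cx3cr1 value was 0.99, under the fold threshold, without control culture 4 at 3.5 h and without VWF culture 4 at 16 h. The LPS effect changed by 3.06 for Ccr7, 1.43 for Cxcr4, 2.16 for Fpr1 and 1.90 for Fpr2. Without control culture 4 at 3.5 h the Fpr1 value was 1.69 and was not called. The difference between VWF and LPS changed by -4.35 for Ccrl2, 1.91 for Cx3cr1, 1.57 for Cxcr4, -3.02 for Fpr1 and -1.37 for Fpr2.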

How the results depend on the processing

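Of the receptors' fold changes, 938 of 955 refits without 1 culture and 806 of 826 under another setting kept direction and call. Signs turned only for values near 0. Cx3cr1 with VWF at 3.5 h became -0.085 with library size scaling and -0.003 without VWF culture 1, in a range of -0.003 to 0.267 over left-out cultures. Ccr1 with LPS at 3.5 h became 0.168 with voom, 0.048 with filterByExpr, 0.011 with no filter, 0.041 with a filter of 1 TPM, 0.068 with the replicate block, and -0.119 to 0.103 over left-out cultures. Fpr2 in VWF against LPS at 3.5 h became 0.076 with library size scaling, Cxcr4 in LPS cultures between the times 0.076 with voom, and the change of the VWF effect on Ccr2 -0.134 with voom. The causes were not tested.

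With no fold threshold, 5 receptors rather than 3 passed for VWF at 16 h. Outside VWF against LPS at 16 h, same-numbered cultures did not deviate together in every pair, and the labels do not tie them. For VWF against control at 3.5 h, 4 of 5 pairs had a correlation over 0.1 (range -0.41 to 0.685). The main fits did not use the number, although culture 4 had the highest summed neutrophil markers in every group. Fibroblast markers at 3.5 h also went with the number, at 151.7 and 194.1 CPM in culture 1 of control and VWF and 21.55 and 22.25 CPM in culture 3. A shared source of same-numbered cultures was not tested. The replicate block took Cx3cr1 with VWF at 16 h to an adjusted p of 0.0537 (1.27). The block also made a call of Ccr7 for the change of the VWF-LPS difference (-2.03, adjusted p = 0.0391). It changed no other receptor call. Without LPS culture 1 at 16 h Ccr7 was under the filter. The number of genes called over the 12 comparisons was 679 to 2301, and 2163 to 5392 with no fold threshold, 1362 to 4116 with filterByExpr, 1378 to 4542 with no filter and 1213 to 3775 with a filter of 1 TPM. With library size scaling, all tested genes had a median of -0.57 to 0.44 on the log2 scale over the comparisons. The genes most like each receptor shared at most 1 of 3 with those found on z-scored levels. Counts under 100 reads, as for Ccr7 outside LPS cultures at 16 h and Fpr1 in most controls, limit precision. Calls of single genes from the other lists were not followed over these refits, and some lay near the fold threshold. Examples with VWF are Cmklr1, Rgs16 and Pik3cg at 3.5 h (1.008, 1.012 and 1.015) and Prex1 at 16 h (1.018).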
